A study of Mus musculus with 6 samples.

Results

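The cytosolic ribosomal protein genes were followed in 3 cultured lines of mouse lung endothelial progenitor cells (EPC), to ask whether the genes for the ribosome's own proteins differed between the lines. Members were all probes whose gene name on the array is a ribosomal protein name of the large subunit (Rpl and a number, or Rplp) or of the small subunit (Rps and a number, or Rpsa), including like-named paralogs such as Rpl7l1 and Rps27l. This rule gave 81 of 25697 probes and 62 of 18138 gene names. It used names only and no measured value. There were 48 probes for 35 genes of the large subunit and 33 probes for 27 genes of the small subunit.

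Each line was measured on 2 MouseRef-8 v2.0 bead arrays, and the 6 arrays lay on 1 chip. The cells came from the lungs of athymic nude mice, by a sort whose gate included Flk-1+ and CD45-, and all lines were grown in mouse endothelial medium with serum. EPC was the primary line, at passage 3 to 6. EPC_acLDL was EPC that had been given fluorescent acetylated low density lipoprotein (acLDL), sorted for its uptake and replated, also at passage 3 to 6. EPC_Late was EPC_acLDL carried on in culture, at passage 16 to 20, so that EPC_Late and EPC differ in the acLDL sort as well as in passage. Each line was a single culture lineage, so passage cannot be told apart from any other difference between these cultures. The sources describe the arrays of a line both as duplicates of 1 sample and as separate experiments, so the p-values may measure only technical spread. In RNA from a whole culture, fewer cells with a transcript and less of it per cell cannot be told apart.

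A ribosome joins ribosomal RNA with one copy of nearly every ribosomal protein. The small subunit reads the messenger RNA and the large subunit forms the peptide bond. The P0, P1 and P2 proteins form a stalk on the large subunit that calls in the elongation factors. The mRNAs of ribosomal proteins are among the most abundant in growing cells, and they are known for a run of pyrimidines at their 5′ end through which the mTOR pathway sets how well they are translated. Shortage of some of these proteins causes Diamond-Blackfan anaemia, a disease of red cell precursors. Several free ribosomal proteins bind Mdm2, the inhibitor of p53.

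The sequence around the annotated start was shown for the 4 genes that differed between lines and for 2 members with long pyrimidine runs, since this is the feature that the family is known for. The RefSeq promoter table of mouse build GRCm38.p6 held 50 of the 62 member symbols. Each line gives 30 bases of the gene's strand, the 10 before the annotated start and the 20 from it on. Capitals mark a run of at least 5 C or T, counted from a C within 5 bases of that start. Further C or T may stand directly before the marked stretch, as for Rpl35. The first 4 lines are Rpl38 at chr11:114668570-114668599 (plus strand), Rps2 at chr17:24720053-24720082 (plus), Rpl23 at chr11:97782420-97782449 (minus) and Rps7 at chr12:28635934-28635963 (minus). The last 2 are Rps10 at chr17:27635225-27635254 (minus) and Rpl35 at chr2:39005112-39005141 (minus).
Rpl38: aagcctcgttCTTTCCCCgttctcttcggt
Rps2: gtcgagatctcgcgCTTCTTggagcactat
Rpl23: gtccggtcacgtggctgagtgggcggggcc
Rps7: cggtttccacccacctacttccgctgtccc
Rps10: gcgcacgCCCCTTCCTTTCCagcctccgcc
Rpl35: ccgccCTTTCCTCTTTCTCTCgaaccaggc

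Rpl38 and Rps2 held such a run, and Rpl23 and Rps7 did not at the start given here. Among the members, 25 of 50 genes (50%) held the run, against 21.2% of the 27025 genes in the table and 21.5% of the 17492 protein-coding ones. It was found in 9 of the 19 members with a probe bright enough to be compared between lines (47.4%) and in 16 of the 31 without one (51.6%). In the 300 bases from 250 before to 50 after the start, the motif CTTCCGG, on either strand, was present for 22 of 50 members (44.0%). It was present for 9.93% of all genes and 12.9% of the protein-coding ones. The motif AAGATGG, on either strand, was present for 16.0% of members, 7.28% of all genes and 7.18% of the protein-coding ones. These are matches of letters and not measured binding sites.

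The array reported a part of the family. A probe was above background on an array where the deposited detection p-value was below 0.05, and lines were compared for a probe that passed this on the full pair of arrays of 1 line or more. Of the 81 member probes, 27 (33.3%) met this, against 2333 of all probes (9.08%). A further 52 member probes (64.2%) were above background on none of the 6 arrays, against 88.8% of all probes, and 23 (28.4%) were above it on all 6, against 6.56%. The 27 probes stood for 25 genes, with 15 probes for 14 genes of the small subunit and 12 probes for 11 genes of the large subunit.

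The other 37 genes had no probe that could be compared. They included Rplp0 and Rplp2 of the stalk, the large subunit genes Rpl4, Rpl6, Rpl7a, Rpl13a, Rpl14, Rpl17, Rpl18, Rpl19, Rpl21, Rpl22, Rpl24, Rpl27, Rpl27a, Rpl28, Rpl29, Rpl34, Rpl36a, Rpl39 and Rpl41, and the paralogs Rpl3l, Rpl22l1 and Rpl39l. In the small subunit they included Rpsa, Rps4x, Rps4y2, Rps6, Rps15, Rps15a, Rps16, Rps21, Rps23, Rps25, Rps26 and Rps27a. The brightest signal of any uncompared probe was 483, for Rpl28 on an EPC_Late array. A signal at background does not show that the transcript was absent. Of the 16 member genes with several probes, 8 had both compared and uncompared probes (Rpl23, Rpl31, Rpl37, Rpl38, Rpl7l1, Rps9, Rps19 and Rps24), and Rps3 was the 1 gene with all its probes compared. One Rps19 probe was above background on 6 arrays and its other probe on 1 array. Ribosomal protein genes have many near-identical processed copies in the genome, and whether a probe reads only the gene it is named for was not tested.

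**Figure D1:**
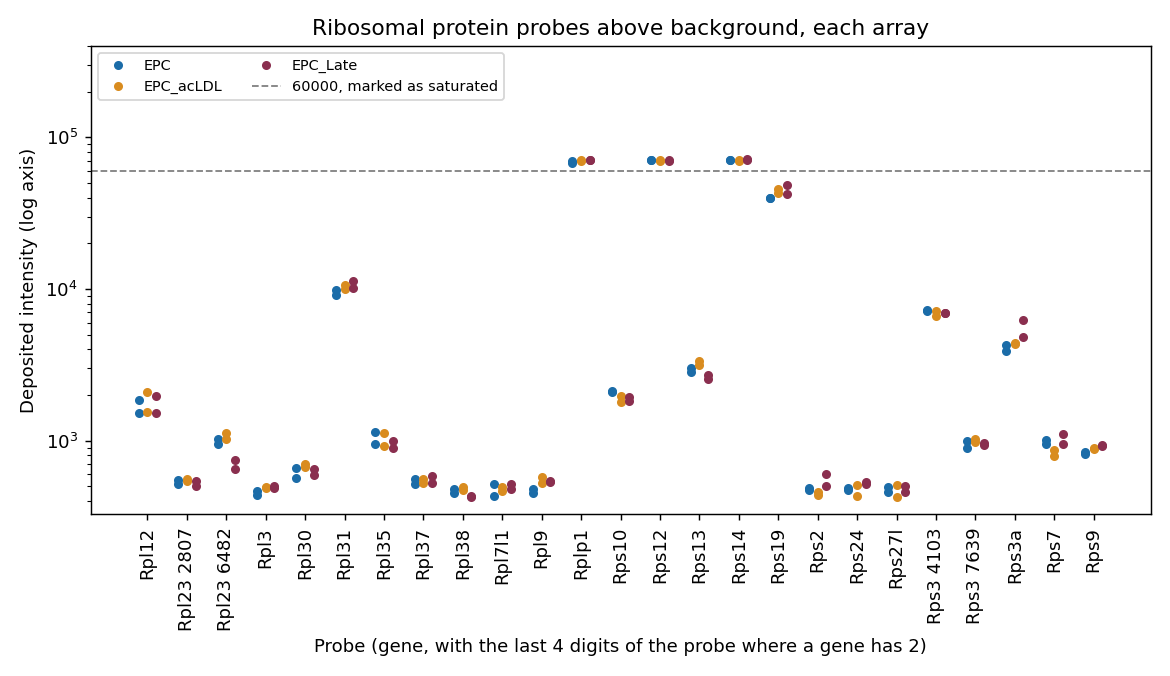
Deposited intensity of 25 of the 27 compared ribosomal protein probes on each of the 6 arrays, on a log axis, with 1 point per array coloured by line and the level taken as saturated as a dashed line. The points of a probe lie close together in most columns, and 3 probes lie above the dashed line on every array.

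Rplp1, Rps12 and Rps14 were too bright for the scanner to show a difference. Rplp1 encodes an acidic protein of the stalk, and Rps14 is a small subunit gene whose loss is known from the human 5q- syndrome. Their signals lay between 67161 and 71096 for Rplp1, 70131 and 71281 for Rps12, and 70230.0 and 71993 for Rps14, all above 60000, which was taken as saturated. Only 16 probes of the array reached that level on any array. No fold is given for these 3 probes, which leaves 24 unsaturated probes. One of these, of Rpl38, was above background on no EPC_Late array, so its differences from EPC_Late are only bounded, and its fitted values enter the counts and medians below.

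In the low passage lines, no ribosomal protein probe was called between EPC_acLDL and EPC in the fit used here, while 4 alternatives with limma called 2 or 3. Limma, with Benjamini-Hochberg adjustment over all 2333 probes, called 0 of the 27 members, where it called 3.3% of all probes (1.93% higher and 1.37% lower in EPC_acLDL). The smallest adjusted p of a member was 0.0856. Without adjustment, 5 members had a p below 0.05, where 20.1% of all probes had. The methods' t-test gave 4 members unadjusted (14.8%, against 15.2% of all probes) and 0 after Benjamini-Hochberg adjustment. Limma-trend with robust variances called 3, namely Rps7, Rps10 and Rps3 (probe ILMN_2594103), all lower in EPC_acLDL, and so did limma without background correction. These are 11.1% of the members, where 12% and 11.7% of all probes were called. Rps7 and Rps10 were also called with an offset of 50 without detection information (7.41% of members and 7.03% of all probes) and with a detection p below 0.01 on all arrays (11.1% and 19%). Counted this way, the offset was the 1 alternative in this comparison under which the members' share lay above that of all probes. The members in these shares include the 3 saturated probes, which could show no difference and can only lower the shares. Of the 24 unsaturated probes, 22 had a 95% interval that lay within a 2-fold change in either direction, and 19 had an interval that included 0.

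The 5 members with an unadjusted p below 0.05 in that comparison were named after their values were seen. Rps7, whose free protein binds Mdm2, had signals of 1016 and 956 in EPC and 871 and 789.5 in EPC_acLDL. Both EPC arrays lay above both EPC_acLDL arrays, with a log2 difference of -0.70 (95% interval -1.11 to -0.30) and a limma adjusted p of 0.0856. Rps10, mutated in some cases of Diamond-Blackfan anaemia, had 2120.2 and 2104 in EPC and 1982 and 1794 in EPC_acLDL, a difference of -0.46 (adjusted p = 0.104). For Rps2, which was above background on 1 of 2 EPC_acLDL arrays, the difference was -0.61 (adjusted p = 0.172), and for the Rps3 probe ILMN_2594103 it was -0.30 (adjusted p = 0.213). Rpl9, a large subunit protein at the base of the stalk, had the opposite sign, with 451 and 478 in EPC and 525 and 574 in EPC_acLDL and a difference of 0.42 (adjusted p = 0.13).

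In EPC_Late, Rpl23 and Rpl38 of the large subunit were called lower than in either other line, where Rpl38 was compared only because it was above background in those lines. Against EPC, 2 of 27 members were called (7.41%), both lower, where 23.9% of all probes were called (10.9% higher and 13% lower). Against EPC_acLDL, 4 of 27 were called (14.8%), with Rpl23 and Rpl38 lower and Rps2 and Rps7 of the small subunit higher, where 20.9% of all probes were called (9.34% higher and 11.5% lower). In both comparisons the members' share lay below that of all probes in this fit. It lay above it under 2 of the alternatives against EPC (33.3% against 29.2% without background correction, for example) and under 5 against EPC_acLDL (29.6% against 24.6% with an offset of 50 without detection information). In these shares and those given below, the members include the 3 saturated probes, which could show no difference. The comparisons share arrays, so the calls are not independent of each other.

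Rpl23 encodes a protein on the face of the large subunit that meets the small one, and its free form binds Mdm2. Its probe ILMN_2946482 had signals of 951 and 1027 in EPC, 1119 and 1028 in EPC_acLDL, and 652 and 748 in EPC_Late. Both EPC_Late arrays lay below the other 4, which overlapped among themselves after normalization. On the normalized log2 scale the means were 9.52 ± 0.11 in EPC, 9.40 ± 0.12 in EPC_acLDL and 8.46 ± 0.27 in EPC_Late (SD, n = 2 arrays). EPC_Late lay 1.06 below EPC (log2 difference -1.06, 95% interval -1.45 to -0.67, a 2.08-fold lower signal, adjusted p = 0.00491). The difference from EPC_acLDL was -0.94 (95% interval -1.33 to -0.55, adjusted p = 0.0102). Over the alternatives the difference from EPC ran from -1.24 to -0.63, so that a 2-fold change was not reached in all of them. In the fit used here no other member reached 2-fold in any comparison.

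A second Rpl23 probe was compared, ILMN_2742807, and it did not pass the threshold. Its signals were 551 and 514 in EPC, 554 and 542 in EPC_acLDL, and 542 and 499 in EPC_Late, so that the lines overlapped. Its difference between EPC_Late and EPC was -0.41 (95% interval -0.96 to 0.13, adjusted p = 0.26), the same sign as the other probe. Against EPC_acLDL it was -0.24 (95% interval -0.79 to 0.31, adjusted p = 0.541). The array has 4 Rpl23 probes, and the remaining ones were not compared.

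Rpl38, a small protein of the large subunit that mouse embryos need for translating certain Hox mRNAs, had signals of 448 and 476 in EPC, 475 and 497 in EPC_acLDL, and 433 and 423 in EPC_Late. It was above background on all 4 arrays of the low passage lines and not well above background on either EPC_Late array, so it met the detection filter through the lines where it is high. Without that filter the adjusted p was 0.0205 against EPC and 0.0385 against EPC_acLDL. On the background-corrected and normalized scale, the signal in EPC_Late was therefore only bounded, at least 1.31-fold lower than in EPC and at least 1.25-fold lower than in EPC_acLDL. These bounds were not tested. The limma adjusted p of 0.0125 and 0.0201 belong to the fitted differences of -0.74 and -0.68, which use EPC_Late signals not above background. The bounds hold for that scale only, since without background correction the log2 differences were -0.24 and -0.22, which are smaller than these bounds. For this bound, each EPC_Late array was given its dimmest signal that still counted as above background, or the probe's own signal where that was higher.

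Rps2 and Rps7 were called higher in EPC_Late than in EPC_acLDL, in the fit used here and in 6 of 12 alternatives for Rps2 and 4 of 13 for Rps7. Both lost the call without a detection filter (adjusted p = 0.0677 and 0.123), and Rps7 also lost it after a shift to a common 75th percentile (adjusted p = 0.141). Rps2, near the entry of the messenger RNA into the small subunit, had signals of 475 and 488 in EPC, 435 and 458 in EPC_acLDL, and 505 and 603 in EPC_Late. It was above background on 1 of 2 EPC_acLDL arrays and on both arrays of the other lines, so it met the detection filter only through the lines where it is high. Both EPC_acLDL arrays were the lowest of the 6, and the difference from EPC_Late was 0.85 (95% interval 0.35 to 1.36, adjusted p = 0.032). Over the alternatives this value ran from 0.285 without background correction to 1.17 without EPC_Late replicate 1. Rps7 had 949 and 1107 on the EPC_Late arrays, beside the EPC and EPC_acLDL signals given above. EPC_Late overlapped with EPC and lay above EPC_acLDL by 0.62 (95% interval 0.21 to 1.03, adjusted p = 0.0469). The difference of EPC_Late from EPC was 0.24 for Rps2 (95% interval -0.27 to 0.74, adjusted p = 0.497) and -0.09 for Rps7 (95% interval -0.49 to 0.32, adjusted p = 0.796).

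**Figure D2:**
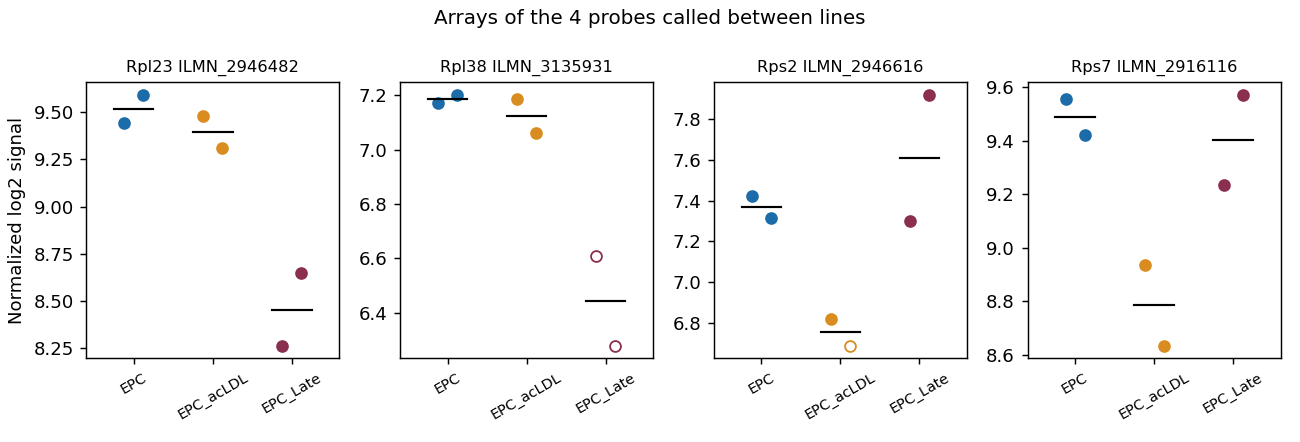
Normalized log2 signal of the 4 called probes on each array, 1 panel per probe with its own axis, where points are arrays, lines are means over 2 arrays and open points are arrays on which the probe was not above background. EPC_Late lies lowest for Rpl23 and Rpl38, and EPC_acLDL lies lowest for Rps2 and Rps7.

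These calls rested on few arrays. Rpl23 in EPC_Late against EPC kept its call whichever array was left out, with an adjusted p of at most 0.0329. Against EPC_acLDL it lost the call without EPC_acLDL replicate 1 (adjusted p = 0.0786), EPC_acLDL replicate 2 (0.0537) or EPC_Late replicate 1 (0.0506). Rpl38 against EPC lost it without EPC replicate 1 (0.0513), EPC replicate 2 (0.0579) or EPC_Late replicate 2 (0.0615), and against EPC_acLDL without either EPC_acLDL array (0.125 and 0.0892) or EPC_Late replicate 2 (0.0933). Rps2 kept its call in 1 of the 6 omissions, that of EPC_Late replicate 1, and Rps7 in none, with adjusted p from 0.0613 to 0.239. The number of members called in EPC_Late against EPC_acLDL was accordingly 0 without either EPC_acLDL array, 1 without EPC_Late replicate 2, 2 without either EPC array and 3 without EPC_Late replicate 1. Against EPC it was 1 without either EPC array or EPC_Late replicate 2, and 3 without either EPC_acLDL array. The calls over all probes also changed in these fits, to between 8.04% and 17.9% against EPC_acLDL and between 14.4% and 18.7% against EPC.

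Some members had differences in EPC_Late that did not pass the threshold, and those described here were named after their values were seen. Rps19, the gene most often mutated in Diamond-Blackfan anaemia, had 39592 and 39900 in EPC, 45483 and 43045 in EPC_acLDL, and 48546 and 42041 in EPC_Late. Its differences were 0.39 from EPC (adjusted p = 0.0676) and 0.43 from EPC_acLDL (adjusted p = 0.0532). The deposited signals of EPC_Late and EPC_acLDL overlapped, and those after quantile normalization did not. Rps3a had 3892 and 4295 in EPC, 4335 and 4368 in EPC_acLDL, and 4822 and 6193 in EPC_Late, with differences of 0.41 (adjusted p = 0.12) and 0.53 (adjusted p = 0.0647). Rpl31, a large subunit protein beside the exit of the peptide tunnel, had 10688 and 9999.6 in EPC_acLDL and 10206 and 11317 in EPC_Late, which overlap. After quantile normalization the arrays no longer overlapped, with a difference of 0.35 (adjusted p = 0.108). Rps13 had the opposite sign, with 3000.2 and 2815 in EPC and 2565 and 2724 in EPC_Late, a difference of -0.28 (adjusted p = 0.122).

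The calls of these members changed with the variance model, and the size of the differences of Rps19 and Rpl31 changed with the scaling. Limma-trend with robust variances, which lets the spread depend on brightness, called 8 members in EPC_Late against EPC (29.6%, where it called 29.7% of all probes) and 9 against EPC_acLDL (33.3%, where it called 27%). Against EPC the calls included Rps19, Rps3a and Rpl31, higher, and Rps13, lower, besides Rpl23 and Rpl38. Against EPC_acLDL they included Rps2, Rps3 by probe ILMN_2594103, Rps3a, Rps7, Rps19 and Rpl31, higher, besides Rpl23 and Rpl38, lower. The other Rps3 probe, ILMN_2637639, had the opposite sign in this comparison (-0.03) and was called under no alternative. For Rps19 the adjusted p under that model was 4.72e-05 against EPC and 2.17e-05 against EPC_acLDL, and over all alternatives it ranged up to 0.671 and 0.888. Over 13 alternatives, Rps19 was called against EPC in 4. All differences given with values here for Rps19, Rps3a and Rpl31 kept their sign under every alternative run for them, but not their size. The lowest values were 0.11 for Rps19 against EPC, 0.040 for Rps19 against EPC_acLDL, 0.22 and 0.34 for Rps3a, and 0.065 for Rpl31 against EPC_acLDL.

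**Figure D3:**
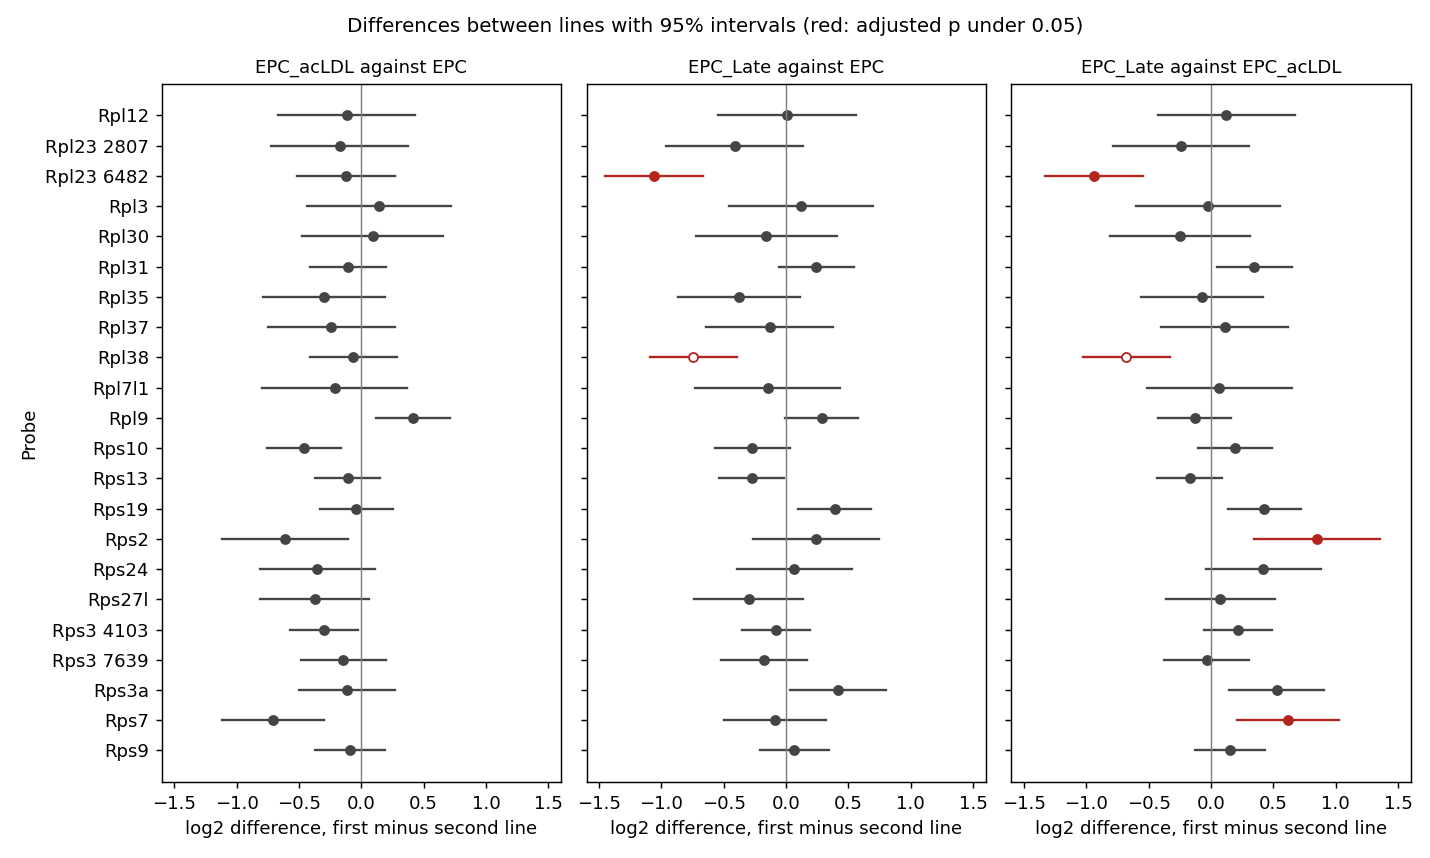
Log2 difference between lines for 22 of the 24 unsaturated ribosomal protein probes, with 95% intervals of the limma fit, 1 panel per comparison, where red marks an adjusted p under 0.05 and open points mark a line not above background. Called probes number 0, 2 and 4 in the panels from left to right, and most intervals include 0.

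Over the 24 unsaturated members the median log2 difference was -0.12 in EPC_acLDL against EPC, -0.083 in EPC_Late against EPC and 0.12 in EPC_Late against EPC_acLDL. With the 3 saturated probes included the medians were -0.11, -0.0082 and 0.075. Over all probes tested the medians were 0.0075, 0.0056 and 0.0028. The values ran from -0.70 to 0.42, from -1.06 to 0.55 and from -0.94 to 0.85 in these comparisons. The median size of a difference, without its sign, was 0.16, 0.26 and 0.21 for the 24 unsaturated members and 0.19, 0.25 and 0.23 for all probes. A 2-fold difference was reached by 0, 1 and 0 members and by 35, 235 and 173 of all probes.

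The sign of the members' median depended on how the arrays were scaled. In EPC_acLDL against EPC, 21 of 27 members had negative and 6 positive differences. With a shift to a common 75th percentile in place of quantile normalization 13 were negative and 14 positive, and the median was 0.0096, where the median of all probes moved to 0.165. In EPC_Late against EPC_acLDL the shift gave a member median of -0.021, where all probes moved to -0.146. Relative to all probes, the members' median lay -0.119 and -0.155 apart under these scalings in EPC_acLDL against EPC, and 0.0724 and 0.125 in EPC_Late against EPC_acLDL. In EPC_Late against EPC it lay -0.0138 and -0.0828 apart.

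**Figure D4:**
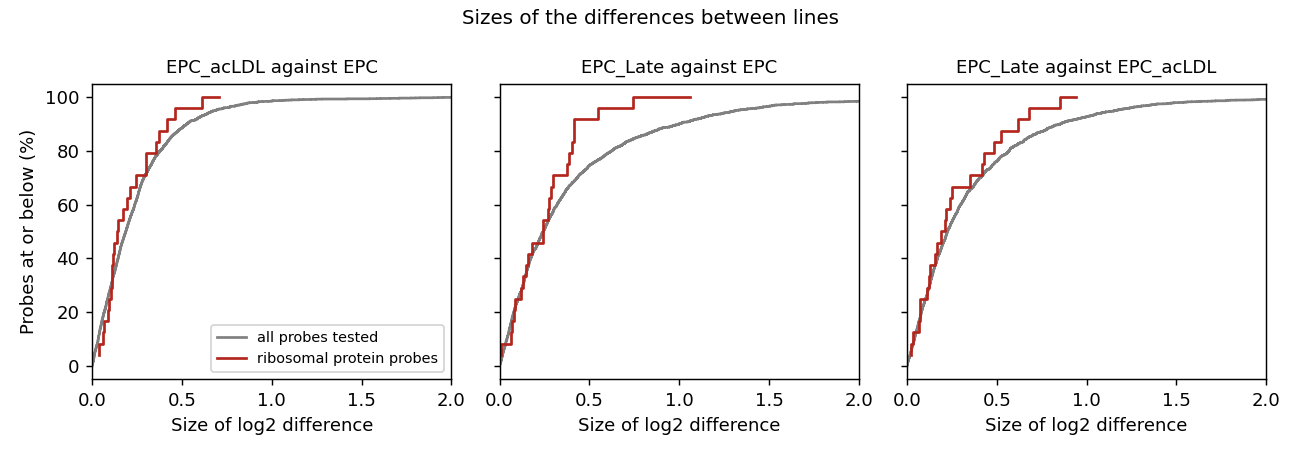
Share of probes (vertical axis, %) whose log2 difference is at most the size on the horizontal axis, for the 24 unsaturated ribosomal protein probes (red) and all 2333 probes tested (grey), 1 panel per comparison. The red line ends at 0.70, 1.06 and 0.94, and the grey line goes on beyond these values.

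No test was made of the medians by subunit. The 13 unsaturated small subunit probes had medians of -0.14, 0.066 and 0.22 in the comparisons as ordered above, and the 11 large subunit probes had -0.12, -0.15 and -0.075. The 9 unsaturated probes of genes with a pyrimidine run at the start had medians of -0.30, 0.0059 and 0.16, and the 11 probes of genes without it had -0.14, -0.13 and 0.067. In EPC_acLDL against EPC none of these 9 had a positive difference, nor did 10 of the 11, under the scaling used here, while the 4 unsaturated probes of genes with no promoter in the table were all positive (median 0.12).

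Besides the second Rpl23 probe, 10 member probes had intervals that included 0 in every comparison. These were Rpl3, at the core of the large subunit near the site of peptide bond formation, Rpl12 at the base of the stalk, Rpl30, Rpl35, Rpl37, the paralogs Rpl7l1 and Rps27l, the Diamond-Blackfan gene Rps24, Rps9, and the Rps3 probe ILMN_2637639. Rpl3 had differences of 0.14 (95% interval -0.44 to 0.72), 0.12 (-0.46 to 0.70) and -0.02 (-0.60 to 0.56), and it was above background on 1 of 2 EPC arrays. Rps27l, a paralog that p53 induces, had -0.37 (-0.81 to 0.06), -0.30 (-0.74 to 0.14) and 0.08 (-0.36 to 0.51), and it was above background on 1 of 2 EPC_acLDL arrays. Rps3, which lines the entry of the messenger RNA, had -0.14 (-0.49 to 0.20), -0.18 (-0.52 to 0.16) and -0.03 (-0.38 to 0.31) by that probe. The mean width of the intervals of the unsaturated members was 0.817 on the log2 scale.

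Genes that build or serve the ribosome were described by the same fit, from lists drawn up with earlier results of these data known. In the list of ribosome biogenesis genes 5 of 69 probes could be compared, and 0 rose and 2 fell in EPC_Late against each other line, where 13% and 11.5% of all probes were lower. One of the 5, Npm1, was saturated. Rrp9, a protein of the U3 complex that processes ribosomal RNA, fell by 0.75 against EPC (adjusted p = 0.0341) and fell by 0.81 against EPC_acLDL (adjusted p = 0.0287). Nol5a, a core protein of the same kind of complex, fell by 0.47 against EPC (adjusted p = 0.0444), and Nol5 fell by 0.67 against EPC_acLDL (adjusted p = 0.0237). Of the ribosome-linked proteins outside the naming rule, 1 of 6 probes could be compared. This was Mrto4, a nucleolar relative of the stalk protein P0 that holds its place during assembly, with signals of 1295 and 1279.9 in EPC, 1399 and 1331 in EPC_acLDL, and 665 and 741 in EPC_Late. It fell by 1.504 against EPC (adjusted p = 0.000623) and fell by 1.398 against EPC_acLDL (adjusted p = 0.001).

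Other mRNAs known for the same pyrimidine run had 12 of 34 probes compared, and 4 rose and 0 fell in EPC_Late against each other line, where 10.9% and 9.34% of all probes were higher. The 4 were probes of 3 genes against EPC (Eef2, Eef1a1 and Pabpc1) and of 2 genes against EPC_acLDL (Eef2 and Eef1a1), and the probes of Eef1g and Npm1 were saturated. The median log2 difference of the 12 probes was -0.0028, 0.27 and 0.26 in the comparisons as ordered above. Eef2, the elongation factor that moves the ribosome along the messenger RNA, had signals of 6539 and 6092 in EPC, 8832 and 8446 in EPC_acLDL, and 11784 and 11669 in EPC_Late by its brightest probe. It rose by 0.99 against EPC (adjusted p = 0.00138) and by 0.81 against EPC_acLDL (adjusted p = 0.00389), and Eef1a1, which brings the charged tRNA, rose by 0.51 (adjusted p = 0.0269) and 0.56 (adjusted p = 0.0219) by probe ILMN_1377920. Its other compared probe, ILMN_2588052, had 0.13 against EPC (adjusted p = 0.517) and 0.43 against EPC_acLDL (adjusted p = 0.0439). Pabpc1, the poly(A) binding protein, was the 1 listed gene higher in EPC_acLDL than in EPC, by 0.92 (adjusted p = 0.0289). Of the list on control of ribosomal protein translation, 4 of 25 probes could be compared (Frap1, the gene of mTOR, with Pdpk1, Rheb and Rps6ka3), and 0 were called by limma in any comparison. The smallest adjusted p among them was 0.0538, for Pdpk1 in EPC_acLDL against EPC.

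Markers of cell types and of growth were read beside these results. Of 18 probes for endothelial genes, 17 were above background on no array, among them those of Pecam1 and Cdh5, where 88.8% of all probes were. As said above, a signal at background does not show absence of a transcript. The 1 compared probe was Kdr, the gene of the Flk-1 protein used in the sort, with differences of -0.01, 0.01 and 0.02. For blood cells 1 of 13 probes was compared (Csf1r), for fibroblast and mural cells 3 of 15 (Acta2, Col1a2 and Cspg4) and for epithelium 1 of 10 (Cdh1), and of these Col1a2 alone was called, 0.43 higher in EPC_Late than in EPC (adjusted p = 0.047). Of 25 probes for proliferation genes 2 were compared, and both fell in EPC_Late against each other line, where 13% and 11.5% of all probes were lower. Birc5, a protein of dividing cells, fell by 1.01 against EPC (adjusted p = 0.00311), and Tyms, which makes thymidylate for DNA synthesis, fell by 1.25 (adjusted p = 0.000972). The paper's table of array results lists Tyms as up in EPC_Late against each other line, which is the opposite direction. The cause of this difference was not tested. The summed normalized signal of the 25 proliferation probes was 2998 and 3004 in EPC, 3061 and 3164 in EPC_acLDL, and 2047 and 2015 in EPC_Late, so EPC_Late lay below both other lines. Of these probes 23 were above background on no array, where 88.8% of all probes were, and the remaining ones were the called probes of Birc5 and Tyms. The summed signal of the 18 endothelial probes ran from 1079 to 1105 over the 6 arrays. The part of these markers in the ribosomal protein results was not tested.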

How the data were processed

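RNA of 3 cell lines was measured on 6 MouseRef-8 v2.0 arrays, 2 per line. The authors summarized bead intensity per probe in BeadStudio with local background correction and no normalization, and deposited it on a linear scale. Each deposited intensity comes with a detection p-value, the share of negative control probes that are as bright, in 1 table with 0 unused columns of sample values. Probes kept the gene names of the array. RefSeq symbols of GRCm38.p6 were used for sequences only.

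The analysis used limma 3.58.1 in R 4.3.3. The neqc function estimated background from the detection p-values and corrected for it, which stretches differences of dim probes. It then added an offset of 16 and quantile normalized on the log2 scale. Kept were probes with a detection p below 0.05 on the full pair of arrays of 1 line or more. The 3 comparisons were tested in a joint fit of the 6 arrays (lmFit, eBayes, no covariates), with Benjamini-Hochberg adjustment over 2333 probes and a threshold of 0.05. Intervals are those of limma. Steps were tested on simulated intensities. Arrays give no read depth, and their number limits the precision.

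The members, lists and named genes were chosen with earlier results of these data known. Named were the 5 largest called differences in each direction whose arrays did not overlap, a list of genes with known roles, genes whose probes differed in sign with at least 1 called (there was none in the fit used here), and genes with no compared probe. Alternatives were other background corrections, scaling, detection filters, probe choices, variance models, a replicate block, leaving out each array, and the t-test that the methods name. Some members are not reported here by name, though they enter all counts and medians.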

Additional observations from a re-analysis of the deposited data

How the results depend on the processing

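The members called numbered 0 in EPC_acLDL against EPC, 2 in EPC_Late against EPC and 4 in EPC_Late against EPC_acLDL. In that order an offset of 50 without detection information gave 2, 5 and 8 (7.03%, 27.4% and 24.6% of all probes), no background correction gave 3, 9 and 9 (11.7%, 29.2% and 26.1%), and limma-trend with robust variances gave 3, 8 and 9 (12%, 29.7% and 27%). A detection p below 0.01 on all 6 arrays gave 2, 5 and 6 of 18 probes (19%, 52.2% and 47.5%). The methods' t-test gave 4, 5 and 3 without adjustment (15.2%, 24.9% and 24.3%) and 0, 0 and 0 after Benjamini-Hochberg adjustment. Without a detection filter 2 of 81 were called in the last comparison (2.47%, against 1.52%). Leaving out each array gave 0 in EPC_acLDL against EPC (0.372% to 1.26% of all probes), from 1 to 3 in EPC_Late against EPC (14.4% to 18.7%) and from 0 to 3 in EPC_Late against EPC_acLDL (8.04% to 17.9%), where the spread of the line with a single array left was taken from the other lines. Except where they were left out, the 3 saturated probes, which could show no difference, count among the members and can only lower their share. The share of members called, as reported below that of all probes in each comparison, was above it in 8 values over all alternatives. These were 7.41% against 7.03% in EPC_acLDL against EPC with the offset of 50, 33.3% against 29.2% without background correction and 2.47% against 1.91% without a detection filter in EPC_Late against EPC, and, in EPC_Late against EPC_acLDL, 29.6% against 24.6% with that offset, 33.3% against 26.1% without background correction, 33.3% against 27% under limma-trend, 2.47% against 1.52% without a detection filter and 10.7% against 10.5% without EPC_Late replicate 1.

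The members' median in EPC_acLDL against EPC was -0.081 without background correction, 0.0096 after the 75th percentile shift and -0.043 without a detection filter, and leaving out each array gave -0.15 to -0.040. In EPC_Late against EPC it was -0.083 without the saturated probes, and -0.13 to 0.030 with an array left out. In EPC_Late against EPC_acLDL the 75th percentile shift gave -0.021, and leaving out each array gave 0.040 to 0.11. The cause was not tested. Of 478 values of single named probes under an alternative, 406 kept their side of the threshold, 48 gained a call and 24 lost one. Where a value was called in the fit used here or in the alternative, 0 turned sign. Uncalled differences did turn sign, such as that of Rpl3 in EPC_Late against EPC, which ran from -0.20 to 0.43.

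With the replicate number as a block, limma called 0, 2 and 3 members (1.84%, 23.4% and 19.6% of all probes), and Rps7 in EPC_Late against EPC_acLDL lost its call (adjusted p = 0.0715). Same-numbered arrays deviated together with correlations of 0.0794, 0.0211 and 0.0317 over all probes tested (0.2, 0.138 and -0.197 over the members), so the numbers were not taken as pairs. Signal over background limited the comparison to 27 of 81 members, and 3 of these were saturated.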
